A study of Mus musculus with 2 samples.

Results

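The cells described here are liver T cells that were assigned to the CD8αα class in the deposited annotation and in which no transcript of Trdc, the constant region of the T cell receptor δ chain, was counted. They were selected on the class name and on a Trdc count of 0 in the deposited table of filtered unique molecular identifier (UMI) counts, where each UMI stands for 1 captured transcript. The class name itself comes from clusters of transcripts and antibody counts, so its marker levels describe the choice. This rule gave 502 of 11929 cells, of which 390 of 4647 came from TG mice and 112 of 7282 from WT mice. All 604 cells named CD8αα lay in 1 cluster, cluster 2, and 20 TG and 82 WT cells of it held a Trdc transcript.

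TG mice carry a dominant negative form of the TGF-β receptor II (dnTGFβRII), which is driven by the CD4 promoter and is used as a model of autoimmune cholangitis, and WT mice were wild type C57BL/6. CD45+ liver cells were captured with the BD Rhapsody system, with oligonucleotide-labelled antibodies for 49 surface targets. The TG cells shared a capture with cells of IFN-γ ARE-Del-/- mice, the WT cells one with cells of P40-/-IL-2Ra-/- mice, and all were 10 weeks old in the labels, while the study's methods give a younger age. Each genotype was therefore 1 library, the number of mice behind each is not given in the sources used here, so an effect of genotype and one of the capture cannot be told apart.

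CD8 on conventional killer T cells is a pair of an α and a β chain, the coreceptor that binds MHC class I beside the T cell receptor. T cells that carry only CD8αα pairs are best known from the gut epithelium, where many also carry natural killer (NK) cell receptors and are in part of the γδ lineage. In the liver, T cells, NKT cells, which respond to lipids presented by CD1d, and NK cells share several of these receptors. Levels below are UMIs of a gene per 1000000 UMIs (CPM) of the summed counts of a cell class, ratios are log2 of summed shares with 0.5 UMIs added to each count, and ranges in parentheses are 95% intervals, exact for levels, ratios and shares. With 1 library per genotype no test was possible, and the intervals cover counting error only.

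CD8αα cells without Trdc held 1255376 UMIs in TG, with a median of 3141 per cell, and 316522 in WT, with a median of 2713.5. The median depth was 4557 in TG and 2996 in WT CD8αβ cells, 3851.5 and 2860.5 in NKT cells, and 2813 and 2473 in NK cells. The libraries shared 36 cell indices, which occurred in 2 of the 390 TG cells and 2 of the 112 WT cells. B cell and T cell lineage genes occurred together, each with 2 or more UMIs, in 28 TG cells (7.18%) and 0 WT cells. A normalised TER-119 antibody value of 2 or more, TER-119 being a marker of red cells, was found in 42 of the 112 WT cells and in 0 of the 390 TG cells, and values without these cells are given beside the results they touch. Of the TG NK cells, 263 and 343 lay in clusters 3 and 11, which held 1608 and 1401 CPM of the T cell gene Cd3e, while cluster 8 with 153 cells held 133. Ratios against NK cluster 8 alone are therefore given too for several genes. In WT, clusters 3 and 8 (306 and 287 cells) held 122 and 67.5 CPM of Cd3e, so this ground applies to TG. The WT ratios over cluster 8 leave out cluster 3, whose Cd7 level was the nearest to the CD8αα cells.

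CD8αα cells without Trdc made up 8.39% (7.61 to 9.23) of TG and 1.54% (1.27 to 1.85) of WT cells, a difference of 6.85 percentage points (6.03 to 7.73). Among T and NK cells alone their share was 13.5% (12.3 to 14.8) in TG and 2.34% (1.93 to 2.81) in WT. They were 95.1% (92.6 to 97.0) of the CD8αα class in TG and 57.7% (50.4 to 64.8) in WT, so that a larger part of the WT class was left out by the Trdc rule. Without the cells of high TER-119 in every class, the WT share was 1.01% and the difference in share was 7.38 percentage points.

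The markers given for the class were Cd8a, Cd7, Cd160, Xcl1, Itga1 and Klra6, and they were high in CD8αα cells without Trdc of both libraries. Cd8a, the coreceptor α chain, was at 1005 CPM (951 to 1062) in TG and 1261 CPM (1139.9 to 1391) in WT, and CD8αβ cells had 640.1 and 595 CPM. The ratio was short of 2-fold in TG. In WT it passed 2-fold, but not with totals reset by TMM scaling or without CD8αβ clusters 4, 7 and 13. In TG, CD8αβ clusters 18 and 23 held more Cd8a than the CD8αα cells, while in WT no CD8αβ cluster did. Cd8b1, the β chain, was at 35.8 CPM in TG and 31.6 in WT against 759 and 882 in CD8αβ cells, log2 ratios of -4.39 (-4.86 to -3.98) and -4.73 (-5.86 to -3.92). A Cd8b1 transcript was counted in 4.36% of TG and 6.25% of WT cells, and in 3.65% and 6.16% of B cells, which do not express it, at a median of 2923 and 2044.5 UMIs per B cell. The Cd8b1 shares were thus close to those of B cells, and whether they were background was not tested. Cd8a was counted in 66.4% of TG and 74.1% of WT cells against 4.87% and 6.96% of B cells, and with every cell thinned to 1000 UMIs the shares were 46.9% and 52.7% against 1.50% and 3.35%.

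Cd7, an immunoglobulin-family receptor of T and NK cells on chromosome 11 (GRCm38.p6, chr11:121036747-121039418, minus strand), was at 5596 CPM (5466 to 5728) in TG and 5207 CPM (4958 to 5464) in WT. The other TG classes had 710.4 in CD8αβ, 469.6 in NKT and 2161 in NK cells, and the WT classes had 522 in CD8αβ, 194 in NKT and 2480.3 in NK cells. Among NK cells, cluster 3 (263 TG and 306 WT cells) had 4119 and 4198 CPM of Cd7, within 2-fold of the CD8αα cells, and cluster 8 had 853 and 648. A Cd7 transcript was found in 99.7% of TG and 99.1% of WT cells. Cd160, a receptor for the TNF-family receptor HVEM, was at 915 CPM (863 to 969.8) and 926 CPM (823 to 1038), against 169 in CD8αβ, 249 in NKT and 375 in NK cells of TG. Xcl1, a chemokine that attracts cross-presenting dendritic cells, was at 766 CPM (719 to 816) in TG and 1513 CPM (1381 to 1655) in WT. Its WT ratio over NK cells was 0.36 (0.22 to 0.51), and 1.48 over NK cluster 8. Itga1, the α chain of the collagen-binding integrin CD49a of tissue-resident lymphocytes, was at 601 CPM (559 to 645) and 461 CPM (389 to 542), above CD8αβ cells by log2 ratios of 2.74 in TG and 3.83 in WT. It was within 2-fold of all NK cells in both libraries, with 305 CPM in TG NK cells.

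**Figure D1:**
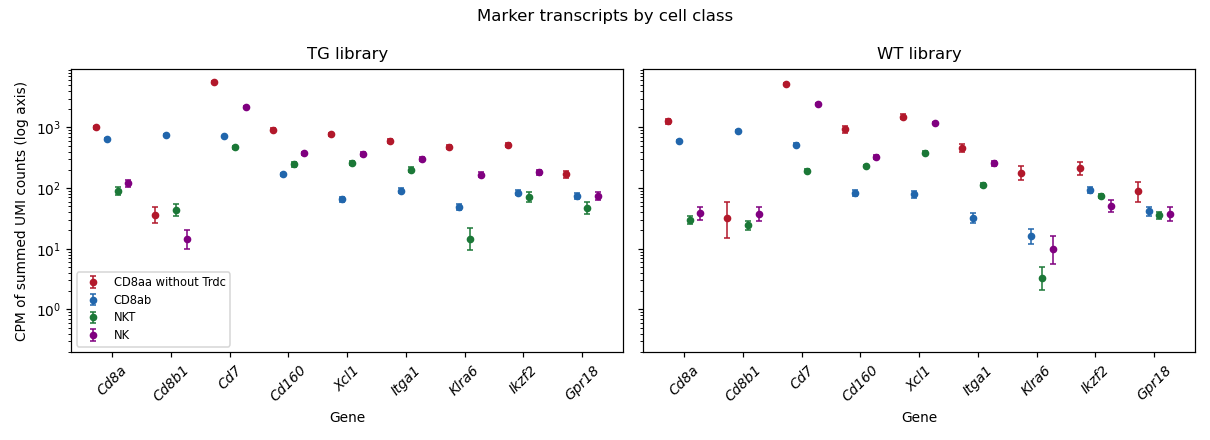
Transcript levels of the class markers and of Ikzf2 and Gpr18 (x axis) in CPM on a log axis (y axis), for CD8αα cells without Trdc and the CD8αβ, NKT and NK classes, with the TG library on the left and the WT library on the right. Points are levels of summed counts and bars are 95% Poisson intervals of counting error. Cd7 stood at 5596 and 5207 CPM in the CD8αα cells, above each of the other classes, and Cd8b1 stood far below its level in CD8αβ cells.

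A gene was called higher or lower where the ratio passed 2-fold, among genes with a mean of at least 50 CPM over the 2 profiles compared. By this rule 7 of 3071 genes (0.228%) were higher than in CD8αβ, NKT and NK cells in both libraries, namely Cd7, Cd160, Klra6, Ikzf2, Gpr18 and the γ chain genes Tcrg-C2 and Trgv2. Cd7, Cd160 and Klra6 are also among the markers given for the class, so their place here describes the choice. Some of these genes, among them Gpr18 and Klra6 in WT, reached the level minimum through the CD8αα cells, which fixed their direction there. Ikzf2, the zinc finger transcription factor Helios, was at 512 CPM (473 to 553) in TG and 212 CPM (164 to 269) in WT, with log2 ratios of 2.60 against CD8αβ, 2.84 against NKT and 1.48 against NK cells in TG, and of 1.21 against CD8αβ, 1.52 against NKT and 2.07 against NK cells in WT. The ratios of Ikzf2 over NK cluster 8 were 2.95 and 2.78. Gpr18, a G protein-coupled receptor known from intraepithelial CD8αα cells, was at 169.7 CPM (148 to 194) and 88.5 CPM (58.8 to 128), while B cells had 89.6 and 77.7 CPM. Over CD8αβ cells without clusters 4, 7 and 13, the ratios of Gpr18 were 0.44 in TG and 0.81 in WT and the WT ratio of Ikzf2 was 0.89, and with TMM scaling, which resets the totals, the ratios of Gpr18 over CD8αβ cells were 0.9998 in TG and 0.91 in WT, each short of 2-fold. The 3 genes lower than in all other classes in both libraries were Klf3, Satb1 and Selenop, of which Satb1 encodes a chromatin organiser of T cell development. Satb1 was at 42.2 CPM in TG against 236 in CD8αβ, 372 in NKT and 99.9 in NK cells, and at 60.0 in WT against 412 in CD8αβ, 631 in NKT and 285 in NK cells.

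Genes of the Ly49 family, lectin-like NK receptors that bind MHC class I, were high or low in these cells gene by gene, and the promoters of 2 high and 2 low members are shown to set the pairs side by side. The 8 family members named here lie within chr6:129898996-130386874 (GRCm38.p6, all on the minus strand). Klra6 (Ly49F) and Klra7 (Ly49G), both inhibitory, were high in CD8αα cells without Trdc, and Klra4 (Ly49D) and Klra8 (Ly49H), both activating, were near 0 there and high in NK cells. The sequences are the RefSeq promoters, 250 bases before to 50 after each gene's start, 5′ to 3′ on the minus strand, and the capitals mark GGAAATTTAGTTCT, the longest run of letters that all 4 windows share. They lie at chr6:130026905-130027204 for Klra6, chr6:130233273-130233572 for Klra7, chr6:130067222-130067521 for Klra4 and chr6:130129849-130130148 for Klra8.
Klra6: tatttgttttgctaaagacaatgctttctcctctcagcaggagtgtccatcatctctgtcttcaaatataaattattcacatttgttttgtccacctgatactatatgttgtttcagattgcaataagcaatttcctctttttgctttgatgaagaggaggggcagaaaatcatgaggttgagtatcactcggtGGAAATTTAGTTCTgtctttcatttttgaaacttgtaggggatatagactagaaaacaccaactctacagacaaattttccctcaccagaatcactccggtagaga
Klra7: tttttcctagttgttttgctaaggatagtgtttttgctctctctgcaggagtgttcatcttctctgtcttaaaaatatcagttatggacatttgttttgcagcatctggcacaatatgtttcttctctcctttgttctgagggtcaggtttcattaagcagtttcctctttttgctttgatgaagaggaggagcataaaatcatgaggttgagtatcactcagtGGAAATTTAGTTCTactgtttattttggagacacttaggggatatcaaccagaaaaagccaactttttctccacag
Klra4: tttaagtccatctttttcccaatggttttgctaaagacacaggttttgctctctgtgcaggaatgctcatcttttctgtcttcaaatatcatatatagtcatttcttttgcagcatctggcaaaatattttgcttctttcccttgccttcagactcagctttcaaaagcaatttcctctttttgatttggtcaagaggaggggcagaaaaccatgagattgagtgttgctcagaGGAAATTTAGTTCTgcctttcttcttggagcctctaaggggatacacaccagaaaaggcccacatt
Klra8: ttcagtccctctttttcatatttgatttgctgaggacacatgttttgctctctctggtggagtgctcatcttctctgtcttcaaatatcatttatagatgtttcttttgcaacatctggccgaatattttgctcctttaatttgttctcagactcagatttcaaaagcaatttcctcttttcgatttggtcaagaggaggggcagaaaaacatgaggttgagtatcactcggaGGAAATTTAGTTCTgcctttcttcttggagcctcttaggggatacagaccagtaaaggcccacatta

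These 14 letters, picked because the 4 windows share them and searched on both strands, occurred in 5 of 32851 RefSeq promoters of this length (0.0152%), all of them promoters of these 4 genes, with Klra8 listed at 2 starts. Between the 4 windows, identity over the aligned bases ran from 76.8% to 86.6%, and the highest was that of the activating pair Klra4 and Klra8. A match of letters is a description of the window and not a site. How reads that match more than 1 member of this family were counted is not given in the sources used here, so the levels of single members are less certain than those of other genes.

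Klra6 was at 477 CPM (439.7 to 517) in TG and 180.1 CPM (136 to 233) in WT. NK cells had 166 and 9.96 CPM, and NK cluster 8 had 26.5 and 17.9. Klra7 was at 1416 CPM (1351 to 1484) in TG and 967 CPM (861 to 1081) in WT, against 719.9 and 336 in NK cells and 168 and 43.4 in CD8αβ cells. Over NK cluster 8 the Klra7 ratios were 0.76 in TG and 0.48 in WT, so that neither passed 2-fold there. The transcripts of the activating receptors were few. Klra4 was counted with 7 UMIs in TG (5.58 CPM) and 3 in WT (9.48 CPM), against 236 and 493 CPM in NK cells, log2 ratios of -5.31 (-6.73 to -4.35) and -5.48 (-7.98 to -4.15). Klra8 was at 6.37 and 25.3 CPM against 267 and 793, log2 ratios of -5.30 (-6.61 to -4.40) and -4.89 (-6.19 to -3.99). The ratios over NK cluster 8 were -7.31 and -6.61 for Klra4 and -7.28 and -5.99 for Klra8.

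Klra1 (Ly49A), Klra5 (Ly49E) and Klra9 (Ly49I), all inhibitory, were also high. Klra1 was at 533 CPM in TG and 281 in WT, Klra9 at 597 and 711, and Klra5 at 147 and 866. Klra3 (Ly49C), also inhibitory, was low, with 58.9 and 28.4 CPM against 109.5 and 124 in NK cells, and the other 3 measured members were under 10 CPM in both libraries. Of the 11 measured family members, the same 5 genes, Klra1, Klra5, Klra6, Klra7 and Klra9, passed 2-fold over CD8αβ and over NKT cells in both libraries, where 6.28% of all genes tested were higher than in CD8αβ cells in TG and 8.97% in WT, and 3.11% and 4.46% were higher than in NKT cells. Most of these genes reached the level minimum through the CD8αα cells, so their direction against CD8αβ and NKT cells was fixed by the minimum. Against NK cells, 1 member was higher and 2 were lower in TG, and 4 were higher and 3 lower in WT, where 1.66% (TG) and 1.76% (WT) of all genes were higher and 1.85% and 2.30% lower. Klra4 and Klra8 reached the level minimum through the NK cells, as did Klra3 in WT, and Klra6 in WT through the CD8αα cells, which fixed those directions. At least 2 Ly49 genes were detected in 87.9% of TG and 74.1% of WT cells, with a median of 3 genes per cell in TG and 2 in WT, and no Ly49 gene in 0.769% and 3.57%. In NK cells 2 or more were found in 58.9% of TG and 45.9% of WT cells, and in CD8αα cells with Trdc in 70.0% and 36.6%. The shares were 13.8% and 5.13% in CD8αβ, 4.93% and 3.45% in NKT and 1.22% and 0.602% in B cells. NK cells and CD8αα cells with Trdc thus widely shared this trait.

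The adaptors of NK receptors were within 2-fold of all NK cells in both libraries, while other NK receptors were mostly higher than in CD8αβ cells and in part lower than in NK cells. Fcer1g and Tyrobp, the signalling adaptors of activating NK receptors, were at 1705 and 1181 CPM in TG and 2417 and 1801 in WT. In CD8αβ cells they were at 289.7 and 176 in TG and 83.8 and 57.1 in WT, while NK cells had 1777 and 1552 in TG and 2499 and 2305 in WT. Over NK cluster 8 the ratios of Tyrobp were -1.17 and -0.46, so that TG passed 2-fold lower. Cd8a and an Fcer1g or Tyrobp transcript were found together in 65.9% of TG and 74.1% of WT cells, against 1.87% and 1.27% of B cells. The shares were 30.7% and 6.47% in CD8αβ, 3.36% and 0.762% in NKT and 17.1% and 5.53% in NK cells. In CD8αα cells with Trdc they were 20.0% and 53.7%, so the pair was not confined to the cells described here. Of 17 measured receptors, 8 of 11 above the level minimum were higher than in CD8αβ cells in TG and 10 of 10 in WT (6.28% and 8.97% of all genes), among them Klrd1 (CD94), Klre1, Klrk1 (NKG2D) and Cd244a (2B4). Some of the higher receptors, among them Cd244a and, in WT, Ncr1, reached the level minimum through the CD8αα cells, which fixed their direction. Klrg1 and Il18rap, an IL-18 receptor chain, were lower than in CD8αβ cells in TG, where 4.29% of all genes tested were lower. Il18rap reached the level minimum there through the CD8αβ cells, which fixed its direction. With TMM scaling the TG ratio of Ncr1 over CD8αβ cells was 0.92, short of 2-fold.

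Against NK cells no receptor of this list was higher and 6 of 14 in TG and 8 of 14 in WT were lower (1.85% and 2.30% of all genes). Some of the lower receptors, among them Il18rap in both libraries and Klrg1 in WT, reached the level minimum through the NK cells, which fixed their direction. Ncr1 (NKp46), a receptor that defines mouse NK cells, was at 181 CPM (158 to 206) in TG and 202 CPM (156 to 258) in WT, below NK cells with 561 and 969 CPM and above NKT cells with 16.4 and 2.27. The ratios of Ncr1 over NK cluster 8 were -2.29 and -2.28. Il18rap was at 24.7 and 12.6 CPM against 251 and 207 in NK cells. Klrb1c (NK1.1) was at 901 and 954 CPM, and its ratios over NK cells were -0.28 (-0.39 to -0.18) and -0.58 (-0.76 to -0.40), within 2-fold.

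All CD8αα cells without Trdc held transcripts of the αβ receptor and most also held a γ chain transcript, and both kinds were found in other T and NK classes too. Trac, the α chain constant region, was at 1558 CPM (1489.8 to 1629) in TG and 1639.7 CPM (1502 to 1787) in WT, close to NKT cells with 1678 and 2263 CPM. A transcript of Trac, Trbc1 or Trbc2 was found in 390 of 390 TG and 112 of 112 WT cells, against 44.6% and 38.0% of B cells. The share was 95.7% and 83.1% in NK cells, 100% and 95.1% in CD8αα cells with Trdc, and 100% and 94.8% in cells named γδ T cells. It therefore does not tell these classes apart. Tcrg-C2, a γ chain constant region, was at 808 CPM (759 to 859) and 682 CPM (594 to 779.7), above CD8αβ cells with 126 and 93.6. A transcript of Tcrg-C1, Tcrg-C2 or Tcrg-C4 was found in 85.4% of TG and 88.4% of WT cells and was missing from 57 TG and 13 WT cells. In B cells it was found in 7.30% and 6.16%. The shares in NKT and NK cells lay between those of the B cells and the CD8αα cells in both libraries, and they were higher in NKT than in NK cells. NKT cells thus widely shared these transcripts. Over NKT cells Tcrg-C2 passed 2-fold in both libraries, and Tcrg-C1 and Tcrg-C4 did not in either. These genes form 1 family, and how reads that match more than 1 of them were counted is not given in the sources used here.

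At the border of the Trdc rule, 5 TG and 7 WT cells of the class had 1 Trdc UMI. They held 1391 and 1388 CPM of Trac, near the 1558 and 1639.7 CPM of the cells at 0. Their Trbc1 was at 60.5 and 81.6 CPM against 380.0 and 556, and their Cd8a at 484 and 653 against 1005 and 1261. Their Tcrg-C1 was at 0 and 612 against 153 and 417, lower in TG and higher in WT, and their Tcrg-C2 at 484 and 939 against 808 and 682. The 15 TG and 75 WT cells with 2 or more Trdc UMIs had 627 and 297 CPM of Trac, and 684 and 718 CPM of Tcrg-C1 against 153 and 417 in cells at 0. Cd3e, an invariant chain of both receptor types, was near level across the border, with 1749 CPM at 0 and 1709 at 2 or more in TG, and 1485 and 1474 in WT. Cd7 was at 5337 and 4685 CPM in the cells with 2 or more, and Klra6 at 152 and 33.5. In the cells with 1 Trdc UMI Klra6 was at 302 and 327 CPM, against 477 and 180.1 in cells at 0.

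**Figure D2:**
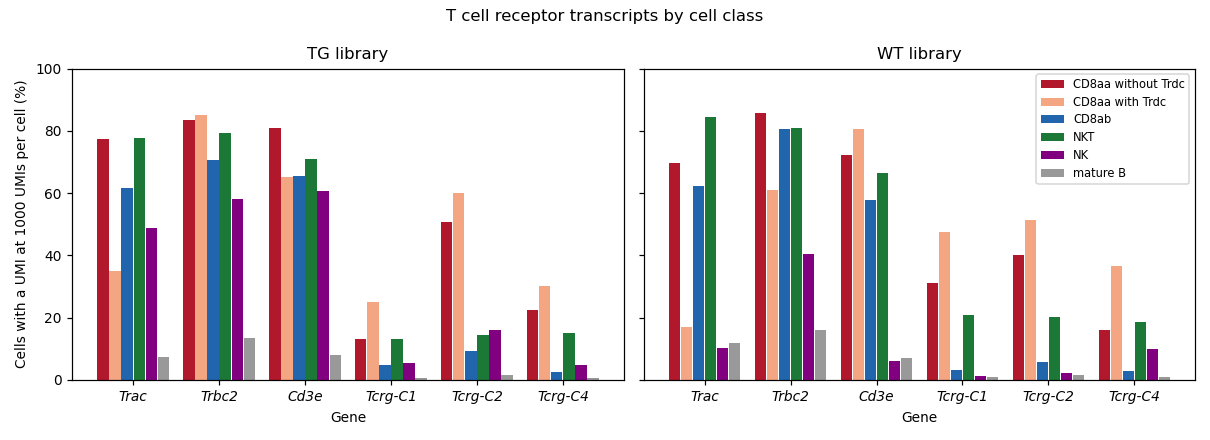
Share of cells with a transcript of 6 T cell receptor genes (y axis, percent, each cell thinned to 1000 UMIs) by gene (x axis), with bars for CD8αα cells without and with Trdc, the 3 comparison classes and B cells, in the TG library on the left and the WT library on the right. At this depth Trac was found in 77.4% of TG and 69.6% of WT CD8αα cells without Trdc, and Tcrg-C2 in 50.8% and 40.2%.

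Of the 7 genes of the T cell receptor complex, 5 were higher than in NK cells in WT (Cd3d, Cd3e, Cd3g, Trac and Trbc2) and 1 in TG (Trbc2, at 0.98 and short of 2-fold with TMM scaling), where 1.76% (WT) and 1.66% (TG) of all genes were higher. Over NK cluster 8 the log2 ratio of Cd3e was 3.71 in TG and 4.45 in WT, while over all NK cells it was 0.59 in TG and 3.92 in WT, so the TG value depended on which NK clusters were used. Cd3g alone of this list was higher than in CD8αβ cells in both libraries, and without CD8αβ clusters 4, 7 and 13 its ratios were 0.71 in TG and 0.54 in WT, within 2-fold. Of 14 receptor signalling genes, 1 of 11 was higher (Zap70) and 1 lower (Themis) than in CD8αβ cells in TG, and in WT 1 of 12 was higher (Sla) and 2 lower (Themis and Cd5), where 6.28% (TG) and 8.97% (WT) of all genes were higher. With TMM scaling the ratios of Zap70 in TG and Sla in WT were 0.91 and 0.95, short of 2-fold. Against NKT cells none was higher, and 3 of 14 in TG and 3 of 12 in WT were lower. Cd5 was at 8.76 and 31.6 CPM against 83.0 and 96.2 in CD8αβ and 132 and 101 in NKT cells. Cd6, a relative of Cd5, was at 4.78 and 12.6 against 120.1 and 92.4 in NKT cells, and Themis, a thymic selection gene, at 20.7 and 15.8 against 104 and 109 in CD8αβ cells. Where Cd5, Cd6 and Themis reached the level minimum, they did so through the comparison cells, which fixed their direction. The costimulatory receptors Cd28 and Icos were lower than in CD8αβ and NKT cells in both libraries, Cd28 with log2 ratios of -2.88 and -1.77 over CD8αβ cells and -4.07 and -2.37 over NKT cells. The share of all genes lower than in CD8αβ cells in WT was 5.05%, and 2.22% (TG) and 2.67% (WT) were lower than in NKT cells.

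Granzyme B was higher than in CD8αβ and NKT cells in both libraries, and perforin was lower than in NK cells in both. Gzmb was at 5069 CPM (4946 to 5196) in TG and 5349 CPM (5097 to 5609.8) in WT, against 809 in CD8αβ, 602 in NKT and 2389.6 in NK cells of TG and 317 in CD8αβ, 446 in NKT and 2748 in NK cells of WT. Gzma, granzyme A, was at 8112 CPM (7955 to 8271) in TG and 3832 CPM (3619.6 to 4054) in WT, below NK cells with 11594 and 8249 CPM. Prf1, the pore-forming perforin, was at 202 and 152 CPM against 671 and 683 in NK cells, log2 ratios of -1.73 (-1.93 to -1.54) and -2.16 (-2.62 to -1.75). Over NK cluster 8 the ratios of Gzmb were 1.30 and 2.00 and those of Prf1 -2.76 and -2.81. Tnfsf10 (TRAIL), a death ligand, was at 223 and 221 CPM, with ratios of 2.20 against CD8αβ, 1.09 against NKT and 1.26 against NK cells in TG, and of 2.75 against CD8αβ, 1.62 against NKT and 0.31 against NK cells in WT, and over NK cluster 8 they were 3.59 and 4.25. Of 16 cytotoxic genes, 4 of 14 were higher than in CD8αβ cells in TG and 5 of 12 in WT (6.28% and 8.97% of all genes), with 1 lower in TG (Gzmm) and 0 in WT (4.29% and 5.05%). 3 of 12 and 4 of 13 were lower than in NK cells (1.85% and 2.30% of all genes), and 2 were higher in TG (Gzmb and Tnfsf10) and 0 in WT (1.66% and 1.76%). With TMM scaling the TG ratio of Gzmb over NK cells was 0.99, short of 2-fold.

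Among secreted factors, Ccl4, a chemokine of activated lymphocytes, was at 1038 CPM (982 to 1096) in TG and 1052 CPM (942 to 1171) in WT, and NKT cells had 83.3 and 32.1 CPM. Ccl3 was at 378 and 556 against 33.4 and 18.9 in NKT cells. Ifng, interferon γ, was at 256 CPM (229 to 286) and 284 CPM (229 to 349.5), with ratios over NKT cells of -0.03 (-0.24 to 0.17) and -0.31 (-0.64 to -0.01) and over CD8αβ cells of 0.85 (0.65 to 1.04) and 1.47 (1.11 to 1.81). Of 18 cytokine genes, 8 reached the level minimum in each comparison, and 3 in TG and 6 in WT were higher than in CD8αβ cells (6.28% and 8.97% of all genes). Without CD8αβ clusters 4, 7 and 13, Ccl3, Ccl4 and Ifng had WT ratios of 0.05, 0.20 and 0.25, within 2-fold. Il17a was at 0 UMIs in both libraries, which allows up to 2.39 CPM in TG and 9.48 in WT.

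The transcript of the shared IL-2 and IL-15 receptor chain was higher and that of the IL-7 receptor lower than in CD8αβ cells in both libraries. Il2rb, the β chain shared by the IL-2 and IL-15 receptors, was at 1905 CPM (1829.8 to 1983) in TG and 2322 CPM (2157 to 2496) in WT, above CD8αβ cells by log2 ratios of 1.08 and 1.50. With TMM scaling the TG ratio was 0.89, and without CD8αβ clusters 4, 7 and 13 the WT ratio was 0.76, both short of 2-fold. The antibody to this chain, CD122, was not higher, with medians of 0.44 and 0.43 against 0.77 and 0.63 in CD8αβ cells, as centred log ratios (natural log). Il7r was at 54.2 and 117 CPM against 423 and 707 in CD8αβ and 848 and 543 in NKT cells. Il21r was at 195 and 284 CPM, with ratios of 1.35 and 1.38 over NK cells.

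Cxcr6 and Rgs1 were higher and S1pr1 and Klf2 lower than in CD8αβ cells in both libraries. Cxcr6, a chemokine receptor of liver-resident lymphocytes, was at 288 CPM (259 to 319) and 385 CPM (320.1 to 460.2), between CD8αβ cells with 114 and 166 CPM and NKT cells with 610.1 and 711. Over CD8αβ cells without clusters 4, 7 and 13, the Cxcr6 ratios were 0.08 in TG and -0.02 in WT, within 2-fold. Rgs1, a brake on chemokine receptor signalling, was at 1074 CPM (1017 to 1133) and 1927 CPM (1777 to 2086) against 199.7 and 303 in CD8αβ cells. S1pr1, the receptor that guides T cells out of tissue, was at 7.97 and 12.6 CPM against 129 and 154, and its activator Klf2 at 140.2 and 75.8 against 632 and 501. S1pr5, the corresponding receptor of circulating NK cells, was at 40.6 CPM in TG against 280.4 in NK cells. In WT it was at 0 UMIs against 102 CPM, at least 10.7-fold lower with a floor of 3 UMIs over the class. S1pr1 reached the level minimum through the CD8αβ cells and S1pr5 through the NK cells, which fixed these directions. Itgae (CD103), which holds T cells in epithelium, had 4 UMIs in TG and 0 in WT. Of 23 homing genes, 19 reached the level minimum in each library, and 5 were higher and 7 lower than in CD8αβ cells in TG, and 6 higher and 6 lower in WT, where 6.28% (TG) and 8.97% (WT) of all genes were higher and 4.29% and 5.05% lower.

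Among transcription factors, Eomes was lower than in NK cells, and Tcf7 and Lef1 lower than in CD8αβ cells, in both libraries. Eomes, which drives circulating NK and memory CD8 T cells, was at 42.2 CPM (31.6 to 55.2) and 34.8 CPM (17.3 to 62.2) against 139 and 333 in NK cells, log2 ratios of -1.71 (-2.17 to -1.29) and -3.20 (-4.27 to -2.41), and -3.20 and -4.25 over NK cluster 8. Cluster 8 had 391 and 692 CPM of Eomes. NK cluster 3 had 51.9 and 28.8 CPM and TG cluster 11 had 59.3, near the level of the CD8αα cells. Eomes reached the level minimum through the NK cells, which fixed its direction. Zbtb16 (PLZF), the regulator of NKT cells, was at 8.76 and 6.32 CPM against 43.0 and 107 in NKT cells. Tbx21 (T-bet) was at 209 and 205 CPM, within 2-fold of NKT and NK cells in both libraries. Tcf7 and Lef1, factors of naive and memory T cells, were lower than in CD8αβ cells, Tcf7 with ratios of -1.18 (-1.41 to -0.97) and -2.97 (-3.70 to -2.39) and Lef1 with -1.56 and -3.25. Without CD8αβ clusters 4, 7 and 13 the TG ratio of Tcf7 was -0.81, within 2-fold. Nfil3, a factor required for NK development, was at 98.0 and 97.9 CPM against 20.7 and 24.8 in CD8αβ cells. Of 34 factors, 20 in TG and 21 in WT reached the level minimum against NKT cells, of which 3 were higher and 5 lower than in NKT cells in TG, and 4 and 5 in WT, where 3.11% and 4.46% of all genes were higher and 2.22% and 2.67% lower.

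Proliferation genes were lower than in CD8αβ cells. Mki67 was at 27.1 CPM in TG and 6.32 in WT, against 527 and 323 in CD8αβ cells, which include the cycling cluster 7 (319 TG and 132 WT cells). Of 14 cell cycle genes, 13 of 13 above the level minimum were lower than in CD8αβ cells in TG and 11 of 12 in WT, where 4.29% and 5.05% of all genes were lower. Only 4 of the 14 reached the minimum against NKT or NK cells and none of these passed 2-fold, so most of the genes counted against CD8αβ cells reached it through the CD8αβ cells, which fixed their direction. When clusters 4, 7 and 13 were left out of the CD8αβ class, 1 of 5 was lower in TG, and 1 of 4 was higher and 0 lower in WT, and the Mki67 ratio was -0.50 in TG and -1.63 in WT. Among checkpoint genes, Lag3 was at 122 and 66.3 CPM against 25.1 and 60.7 in CD8αβ cells, so it passed 2-fold in TG and not in WT, and the difference between libraries was not tested. In TG Lag3 reached the level minimum through the CD8αα cells, which fixed its direction. Pdcd1 (PD-1) was at 2.39 and 12.6 CPM.

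**Figure D3:**
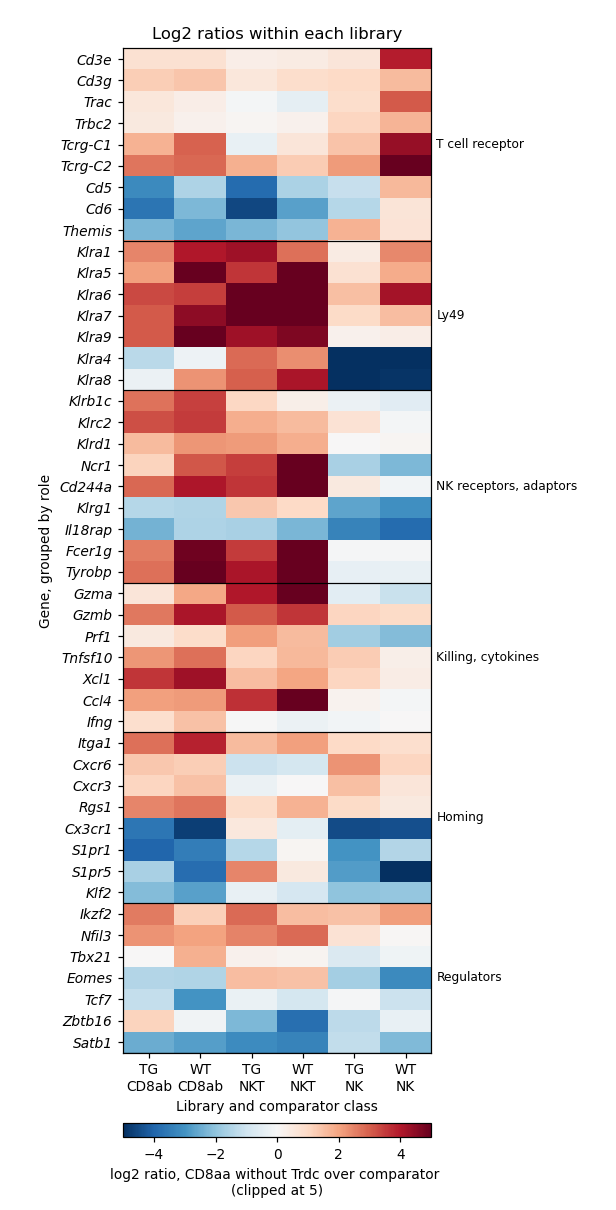
Log2 ratios of CD8αα cells without Trdc over each comparison class (x axis, library and class) for genes grouped by role (y axis), with color from blue (lower) through white to red (higher), clipped at 5. Klra1, Klra5, Klra6, Klra7, Klra9, Fcer1g and Tyrobp were red against CD8αβ and NKT cells, Klra4 and Klra8 were blue against NK cells (-5.31 and -5.30 in TG), and Cd3e, Trac, Tcrg-C1 and Tcrg-C2 were paler in TG than in WT against NK cells.

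Over all genes, 227 of 3613 were higher and 155 lower than in CD8αβ cells in TG, and 318 of 3546 higher and 179 lower in WT. The median ratio of all genes over CD8αβ cells was 0.15 in TG and 0.20 in WT, and ratios stand against that shift. With edgeR's TMM scaling the counts were 150 higher and 240 lower in TG and 220 and 267 in WT, and with ribosomal protein and mitochondrial genes left out of the totals 196 and 231 in TG and 268 and 315 in WT. Without the CD8αβ clusters 4, 7 and 13 the counts were 126 higher and 88 lower in TG and 168 and 110 in WT. In WT the ratio of Gzma over the CD8αβ cells that remained was 0.37, from 1.91, while that of Gzmb was 2.60 and that of Cd7 2.01. 137 genes were higher in both libraries (60.4% of the TG and 43.1% of the WT genes), and none passed in opposite directions against any class. The genes with the largest ratios over CD8αβ cells in TG were 2900026A02Rik (4.20), Cited4 (4.04), Xcl1 (3.56), Itih5 (3.53), Atp8a2 (3.39) and Myo6 (3.34), of which Cited4 is a transcriptional coactivator, Atp8a2 a phospholipid flippase and Myo6 an unconventional myosin. In WT they were Klra5 (6.65), Klra9 (5.04), Tyrobp (4.98), Fcer1g (4.85), Gcnt2 (4.59) and Klra7 (4.47). The lowest in TG were Cdk1 (-6.14), Gzmm (-5.84), Ccnb2 (-5.60), Pclaf (-5.48), Cenpf (-5.35) and Spc24 (-5.31), mitotic or replication genes apart from granzyme M (Gzmm). In WT they were Birc5 (-6.98), Stmn1 (-6.67), Ube2c (-5.59), Mki67 (-5.35), Cmah (-5.23) and Nsg2 (-5.01), of which Cmah hydroxylates sialic acid.

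Against NKT cells 115 of 3692 genes were higher and 82 lower in TG, and 162 of 3635 higher and 97 lower in WT, and 75 higher genes were common to both. In WT the counts were 126 higher and 129 lower with TMM scaling, and 158 and 155 with totals free of ribosomal protein and mitochondrial genes. Itgax (CD11c), an integrin chain of dendritic and NK cells, was among the 6 highest in both, with ratios of 4.99 and 6.64, and so was the adaptor Lat2, with 4.43 and 6.25. The other high genes in TG were Klra7, 2900026A02Rik, Klra6 and the integrin chain Itgad (4.59), and in WT they were Klra7, Gzma, Ncr1 and the carbonic anhydrase Car2 (6.96). The lowest in TG were Mmp9 (-5.23), Maf (-4.85), Icos (-4.66), Cd6 (-4.54), Ly6a (-4.21) and Ccr2 (-4.20), and in WT Serpina3f (-5.02), Cd4 (-4.36), Il2ra (-4.26), Ifi27l2a (-4.21), Ccr9 (-4.14) and Ly6a (-4.00). Ly6a (Sca-1) was thus on both lists.

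Against NK cells 61 of 3680 genes were higher and 68 lower in TG, and 65 of 3692 higher and 85 lower in WT. 21 higher genes were common to both, 34.4% of the TG and 32.3% of the WT genes, and 37 lower genes were common to both. The highest in TG were Cd8a (3.07), Cxcr6 (2.26), Jaml (2.16), Ncf1 (2.14), Atp8a2 (2.10) and Cited4 (1.88), of which Jaml is an adhesion molecule and Ncf1 a subunit of the phagocyte oxidase. In WT they were Cd8a (5.02), Klra6 (4.14), Cd3e (3.92), Cd3d (3.24), Klra1 (2.39) and Ikzf2 (2.07). The lowest in TG were Cma1 (-5.36), Klra4 (-5.31), Klra8 (-5.30), Rap1gap2 (-4.89), Itgam (-4.60) and Cx3cr1 (-4.49), and among the lowest in WT were Cma1, Klra4, Klra8 and Itgam, with Itgam, the integrin chain CD11b of mature NK cells, at -4.64 and the mast cell protease gene Cma1 at -6.24. Against NK cluster 8 alone, the numbers were 197 higher and 153 lower in TG and 201 and 163 in WT, and without the cells of high TER-119 those against all NK cells were 122 and 118 in WT. Over NK cluster 8 the ratio of Cxcr6 was 4.44 in TG and 4.38 in WT, that of Itga1 4.36 and 6.22, and that of Cd7 2.71 and 3.01. Over all NK cells Itga1 was within 2-fold in both libraries, and NK cluster 3 was within 2-fold for Cd7.

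Surface antibodies were read as centred log ratios on the natural log scale, each value being the log of 1 plus the ratio of an antibody count to the geometric mean of the 49 counts of the same cell. CD49a, the product of Itga1, had a median of 3.18 (quartiles 2.78 and 3.53) in TG and 2.91 (quartiles 2.60 and 3.33) in WT, against 1.04 and 0.41 in CD8αβ cells, and it was the only antibody over 1 unit higher than in CD8αβ cells in both libraries. None was over 1 unit higher than in NKT or NK cells in both. CD8b had medians of 0.41 and 0.48 against 1.53 and 1.55 in CD8αβ cells, with 0.35 and 0.46 in NK cells. B cells, which lack the β chain, had 1.63 and 1.70. TCR β had medians of 1.61 (quartiles 1.33 and 1.94) and 1.28 (quartiles 0.91 and 1.62), below CD8αβ cells with 2.77 and 2.80 and above NK cells with 1.41 and 0.80, and the quartiles of the CD8αα and NK cells overlapped in TG. CD5 was at 1.25 and 1.20 against 2.71 and 3.15 in CD8αβ and 3.09 and 3.11 in NKT cells. CD43 (sialophorin) was at 1.54 and 1.00 against 2.60 and 2.69 in CD8αβ cells, and CD11c at 0.78 and 0.60 against 0.12 and 0.16 in NKT cells. Median antibody counts per cell were 578.5 and 754.5 in the CD8αα cells and 1614.5 and 1598 in CD8αβ cells, a difference in depth that goes with these values and whose part in them was not tested.

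**Figure D4:**
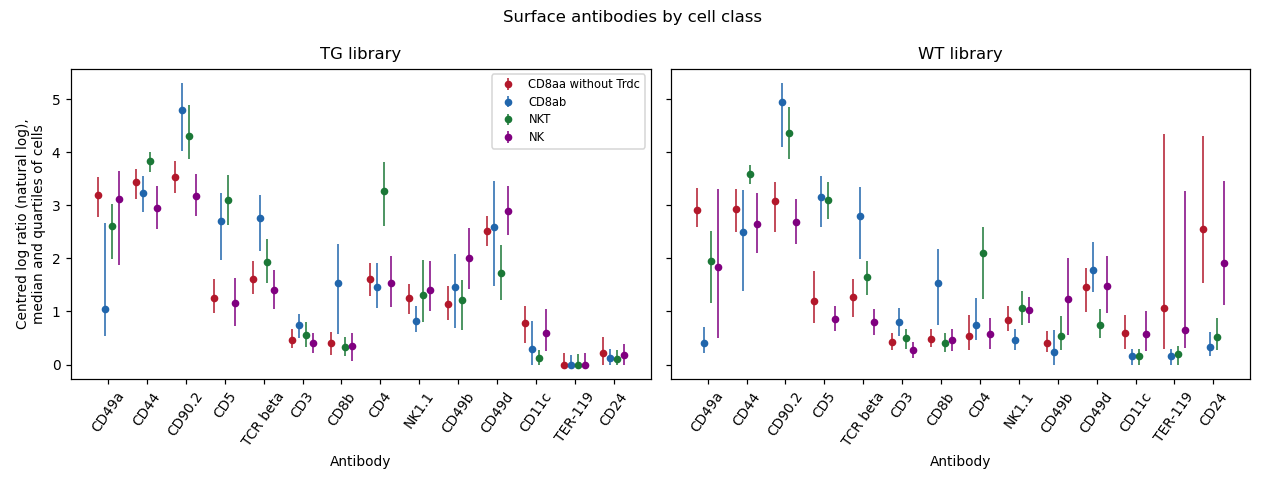
Centred log ratios (y axis, natural log) of 14 antibodies (x axis) in CD8αα cells without Trdc and the 3 comparison classes, TG on the left and WT on the right, with points for medians and bars for quartiles over cells. CD49a was high in CD8αα cells (3.18 and 2.91), CD5, CD90.2 and TCR β lay below CD8αβ cells, and TER-119 in the WT CD8αα cells reached an upper quartile of 4.34.

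Between the libraries, 63 of 3687 genes (1.71%) were higher in TG and 41 (1.11%) lower, and the same ratio in the other classes is given beside those described. The CD8αβ and NK classes were made up of different clusters in the libraries, with 145 TG and 363 WT cells in CD8αβ cluster 4, 319 and 132 in cluster 7, 343 and 22 in NK cluster 11 and 153 and 287 in NK cluster 8, so that their ratios also carry this makeup. Klra6 was 477 CPM (439.7 to 517) in TG against 180.1 CPM (136 to 233) in WT, and a Klra6 transcript was found in 67.9% and 27.7% of cells, or 37.4% and 10.7% at 1000 UMIs. Its log2 ratio, TG over WT, was 1.39 in CD8αα cells without Trdc, 1.57 in CD8αβ, 2.14 in NKT and 4.02 in NK cells, while NK cluster 8 alone had 26.5 CPM in TG and 17.9 in WT. Klra5 went the other way, with 147 CPM (126 to 169) in TG and 866 CPM (766 to 974) in WT, a ratio of -2.56 (-2.84 to -2.29), and -1.48 (-1.74 to -1.23) in NK cells. Ikzf2 was 1.27 (0.91 to 1.66) in CD8αα cells without Trdc, 1.86 (1.52 to 2.23) in NK cells and -0.13 (-0.34 to 0.09) in CD8αβ cells. The difference of these ratios between classes was not tested. Of the class markers Klra6 alone passed 2-fold, and the median ratio of the 6 was 0.04 against -0.03 over all genes.

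The 6 highest genes in TG, Casp1, Cd4, Chst2, Klrg1, Stk32c and Plac8, had ratios above 0 in the other T and NK classes too. In CD8αα cells without Trdc, Casp1, Cd4, Chst2 and Klrg1 reached the level minimum through the TG cells, which fixed their direction there. Casp1, the inflammasome protease, was at 120.3 CPM (102 to 141) in TG and 6.32 CPM (0.765 to 22.8) in WT, with ratios of 3.93 in CD8αα cells without Trdc, 1.11 in CD8αβ, 2.95 in NKT and 1.00 in NK cells. Chst2, a sulphotransferase of selectin ligands, was at 190.4 and 15.8 CPM, with ratios of 3.46 in CD8αα cells without Trdc, 1.88 in CD8αβ, 3.27 in NKT and 4.17 in NK cells. Plac8 had ratios of 2.64 in CD8αα cells without Trdc, 0.94 in CD8αβ, 0.74 in NKT and 2.01 in NK cells. Klrg1, a receptor of mature effector cells, was at 129 CPM (109.9 to 151) and 12.6 CPM (3.44 to 32.4), with ratios of 3.19 in CD8αα cells without Trdc, 3.14 in CD8αβ, 2.82 in NKT and 2.73 in NK cells. Stk32c, a kinase gene, had ratios of 2.79 in CD8αα cells without Trdc, 2.31 in CD8αβ, 2.07 in NKT and 1.20 in NK cells. Tgfbr2, which encodes the receptor chain that the transgene mimics, was at 339 CPM (308 to 373) and 129.5 CPM (93.0 to 176), with ratios of 1.37 in CD8αα cells without Trdc, 0.95 in CD8αβ, 1.48 in NKT and 1.34 in NK cells, and -0.09 in B cells. Whether counted reads came from the human transgene cannot be told from these tables. Apart from Tgfbr2 itself, none of 12 TGF-β pathway and target genes passed 2-fold, with 7 at the level minimum.

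Gzma was 8112 CPM (7955 to 8271) in TG and 3832 CPM (3619.6 to 4054) in WT, a ratio of 1.08 (1.00 to 1.17), and it was 0.49 in NK and 2.37 in CD8αβ cells. Gzmb differed by -0.08 (-0.15 to 0.00) and Cd7 by 0.10 (0.03 to 0.18), both within 2-fold. Xcl1 had a ratio of -0.98 (-1.14 to -0.82), short of 2-fold. Tcrg-C1 was at 153 CPM (132 to 176) in TG and 417 CPM (349 to 495) in WT, a ratio of -1.45 (-1.77 to -1.12), while Tcrg-C2 differed by 0.24 (0.03 to 0.46). A Trdc transcript was counted in 52.9% of 17 TG and 71.4% of 192 WT cells named γδ T cells. A Trdc count of 0 therefore does not exclude γδ cells, and the class held 20 TG and 82 WT cells with Trdc. What part missed γδ cells had in the ratios of Tcrg-C1 and Maf was not tested. The lowest genes in TG were Car2, Klra5, Cxxc5, Maf, Plekha5 and Cbfa2t3, with Maf, a transcription factor of γδ and helper T cells, at -1.89 (-2.69 to -1.07) and Cbfa2t3, a transcriptional corepressor, at -1.78 (-2.39 to -1.16). Car2 reached the level minimum through the WT cells, which fixed its direction. Il7r was lower in TG, at -1.12 (-1.71 to -0.49).

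**Figure D5:**
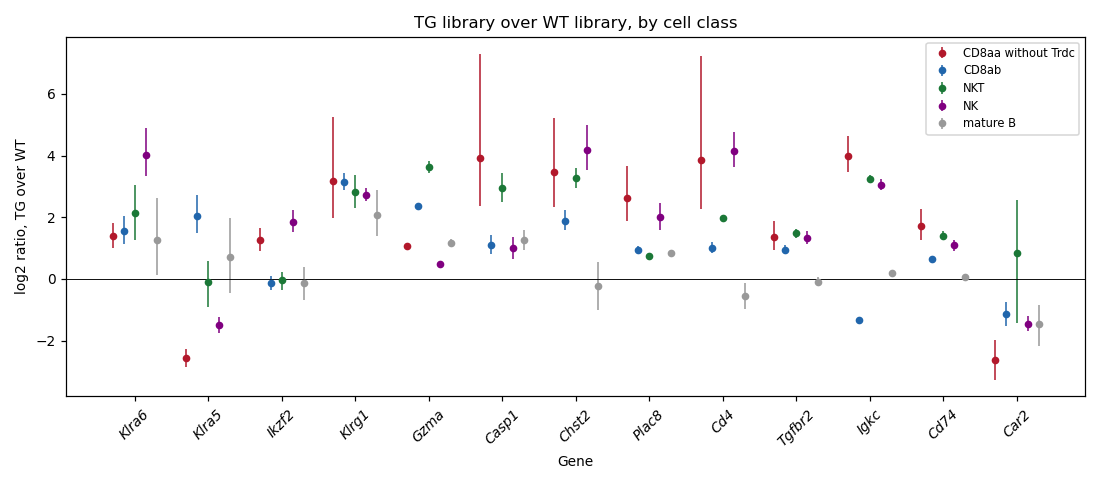
Log2 ratios of the TG over the WT library (y axis) for 13 genes (x axis), with points for each cell class, B cells included, and bars for 95% exact intervals of counting error. Klra5 lay below 0 in CD8αα cells (-2.56) and NK cells and above 0 in CD8αβ cells, while Casp1, Chst2, Plac8 and Tgfbr2 lay above 0 in the 4 T and NK classes, and Igkc lay above 0 in all of these but CD8αβ cells.

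Cd4 was at 113 CPM (95.3 to 133) in TG and 6.32 CPM (0.765 to 22.8) in WT, a ratio of 3.85 (2.28 to 7.22), and it was 1.02 in CD8αβ, 1.97 in NKT and 4.13 in NK cells. A Cd4 transcript was found in 27.9% of TG and 1.79% of WT cells, against 5.15% and 5.29% of B cells, so that the WT share was not above that of B cells. It was also found in 39.7% of TG and 13.9% of WT CD8αβ cells. The shares were 75.8% and 30.7% in NKT and 44.1% and 2.76% in NK cells. What part background had in these shares was not tested. At 1000 UMIs per cell the TG share was 8.46% in CD8αα cells without Trdc, 21.1% in NK cells and 2.53% in B cells. The CD4 antibody had a median of 1.61 (quartiles 1.30 and 1.91) in TG and 0.54 (quartiles 0.28 and 0.94) in WT, with 1.53 and 0.58 in NK cells. CD49d, the α4 integrin chain, was at 2.52 and 1.47, and CD49b at 1.14 and 0.41.

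Transcripts of other cell types moved with the libraries. Igkc, an immunoglobulin light chain, was at 1382 CPM in TG and 85.3 in WT CD8αα cells without Trdc, and at 1281 and 135 in NKT and 1515 and 183 in NK cells. Of 8 B cell genes, 3 (Cd79a, Cd74 and Igkc) of the 4 that reached the level minimum were higher in TG (1.71% of all genes), and the summed level of the list was 2011 CPM in TG and 442 in WT, with Ms4a1 at 7.17 and 0 CPM. Cd79a reached the level minimum through the TG cells, which fixed its direction. The summed level of 4 neutrophil genes was 323 and 104 CPM, and that of 5 red cell genes 0.797 and 6211. Their part in the ratios of other genes was not tested, except that without the cells that held B and T lineage genes together the ratio of Igkc was 4.02, from 3.99, and that of Casp1 3.98, from 3.93. In WT, haemoglobin transcripts were found in 11 of the 112 cells (9.82%) and in 1 of the 390 TG cells, and Hbb-bs, a β globin, was at 1614 CPM against 0.797.

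High TER-119 was found in 37.5% (28.5 to 47.1) of WT CD8αα cells without Trdc, in 27.3% of WT NK cells, and in 0.977% of WT CD8αβ and 1.21% of WT NKT cells. A haemoglobin transcript was held by 9 of these 42 cells, and their median CD24 value was 4.76 against 1.77 in the other 70. Their T cell genes were near those of the 70, with 1447 and 1507 CPM of Cd3e, 1695 and 1607 of Trac and 5461 and 5058 of Cd7. Car2, a gene red cells also express, was at 188 CPM in the 42 cells and 170.3 in the 70. Klra5 was at 899 and 846. Leaving these cells out of every class gave 72 genes higher and 71 lower in TG than in WT, and the ratios of Casp1 and Klra5 were then 3.27 and -2.53. What part red cells had in the other WT values was not tested.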

How the data were processed

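Transcripts and 49 surface antibodies of liver CD45+ cells were measured in 2 capture libraries, and the cells with a genotype name of TG (4647) or WT (7282) were used. Per the methods of the study and the file headers, reads were aligned to mm10 with STAR in the BD Rhapsody pipeline, and UMI errors were corrected. The deposited tables hold UMI counts per gene and cell, filtered by the authors by a rule that is not given in the sources used here, with 13528 genes. Some genes were 0 in all cells of a genotype in this table and above 0 in the deposited counts of the library (611 genes in TG and 359 in WT). The deposited antibody values are centred log ratios on the natural log scale, computed by the authors with Seurat, and the recomputed values were equal to them within rounding. Deposited normalised RNA values were not used. Cell names were assigned by the authors to clusters that were made after joining the datasets.

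Counts were summed over the cells of a class and library and divided by the total. Intervals were exact (Poisson for levels, conditional binomial for ratios, Clopper-Pearson for shares, Newcombe for the difference of shares) at 95%. Genes with a mean of at least 50 CPM over the 2 profiles were called past 2-fold, with 0.5 UMIs added to each count. Named genes were those of the gene lists, the 6 highest and 6 lowest ratios of each of 7 comparisons whose direction held under the other scalings, and the genes higher than in all 3 classes in both libraries. Receptor and immunoglobulin segments, haemoglobin, mitochondrial and sex genes, and genes with most of their UMIs in 3 cells, were not ranked. Members and lists were chosen with earlier results of these data known. No doublet caller was run, and an alternative left out cells in which B cell and T cell lineage genes occurred together, each with 2 or more UMIs. For detection at equal depth each cell was thinned to 1000 UMIs. Alternatives were TMM factors, totals without ribosomal protein and mitochondrial genes, equal weight of cells, thinning, no level minimum, other definitions of members and comparators, and the unfiltered counts. Those without cells with haemoglobin and without cells of a TER-119 value of 2 or more were added after seeing the data. The code was tested on simulated data. R 4.3.3 with edgeR 4.0.16 (TMM only) and Python 3.11.15 with numpy 2.4.6, pandas 2.3.3, scipy 1.17.1, statsmodels 0.14.6 and matplotlib 3.10.9 were used. Some items are not reported here.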

Additional observations from a re-analysis of the deposited data

How the results depend on the processing

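No paired analysis was possible because each genotype was 1 library and no test was run. Each value below is a number of genes past 2-fold unless it is given as a log2 ratio or a share, and the cause of a change was not tested unless it is named.

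With edgeR's TMM scaling 150 genes were higher and 240 lower than in CD8αβ cells in TG. With totals free of ribosomal protein and mitochondrial genes 315 were lower than in CD8αβ and 155 lower than in NKT cells in WT. With cells thinned to 1000 UMIs, which leaves fewer UMIs per class, the WT numbers were 508 higher than in CD8αβ, 304 higher and 147 lower than in NKT, and 188 higher and 157 lower than in NK cells, and 152 genes were higher and 195 lower in TG than in WT. With no level minimum, which adds sparse genes, the TG numbers, higher and then lower, were 1675 and 1400 against CD8αβ, 1335 and 1357 against NKT and 1130 and 1007 against NK cells. Those of WT were 2401 and 1370, 2607 and 968, and 1273 and 1146, those of TG against WT were 1230 and 1168, and 81 genes were higher than in all 3 classes in both libraries.

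Leaving out members with a Tcrg-C1, Tcrg-C2 or Tcrg-C4 transcript kept 57 TG and 13 WT cells. In TG 380 genes were then higher than in CD8αβ, 201 than in NKT and 132 than in NK cells. In WT 1041 were higher and 308 lower than in CD8αβ, 813 and 269 than in NKT, and 690 and 270 than in NK cells. TG against WT gave 339 and 694, and 14 genes were higher than in all 3 classes in both libraries. By its construction this choice turned the ratios of the constant regions: Tcrg-C1 over CD8αβ and NK cells to -4.01 and -4.32 in TG and -1.91 and -0.50 in WT, Tcrg-C2 over CD8αβ, NKT and NK cells to -5.45, -6.36 and -6.00 in TG and -2.71, -4.29 and -0.20 in WT, and Tcrg-C4 over CD8αβ and NK cells to -3.33 and -4.32 in TG and -1.79 and -3.09 in WT. In the 13 WT cells it also turned Cd8a over CD8αβ (-1.67), Ikzf2 over CD8αβ (-1.10), NKT (-0.78) and NK cells (-0.24), Plekha5 over the same classes (-1.56, -1.88 and -2.35) and between libraries (1.58), and Trgv2 over CD8αβ (-0.39) and NKT cells (-1.83).

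Without CD8αβ clusters 4, 7 and 13, with NKT cluster 0 alone and NK cluster 8 alone, 126 genes were higher and 88 lower than in CD8αβ cells in TG and 168 and 110 in WT, 197 and 153 against NK cells in TG and 201 and 163 in WT, and 16 were higher than in all 3 classes in both libraries. Over CD8αβ cells this turned Cxcr6 (-0.0215), Pclaf (0.38) and Cdk1 (1.65) in WT and Birc5 (0.0869) and Nsg2 (0.41) in TG. Without cells holding B and T lineage genes together, Cd79a over CD8αβ cells in WT was 0.10. Without cells of high TER-119, 122 genes were higher than in NK cells in WT, 71 were lower in TG than in WT, Hbb-bs over NK cells in WT turned to -0.28, and the WT share was 1.01%.

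The WT share was 2.66% with all cells named CD8αα. The shares were 1.23% in TG and 0.179% in WT, a difference of 1.05 percentage points, without cells with a γ constant region transcript. Among T and NK cells they were 13.5% and 2.34%, a difference of 11.2. Of 637 ratios of named genes, 389 were past 2-fold, and a change of direction was counted for these alone. Over 6924 alternative values of the 637, 31 were such changes, all of them given above. A further 343 of 637 values lay outside their main interval without cells with a γ constant region transcript. With the narrower CD8αβ, NKT and NK classes 270 of 554 did. At 112 WT cells and 316522 UMIs, a gene at 0 may have been at up to 9.48 CPM.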

Other observations

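Immediate early genes of CD8αα cells without Trdc were within 2-fold of NK cells in both libraries. Of 20 immediate early genes, genes switched on within minutes of a stimulus and also by tissue dissociation, 19 reached 50 CPM. None passed 2-fold between the libraries, and 1 was lower than in NKT cells in WT, where 2.67% of all genes were lower. Against CD8αβ cells 3 were higher in TG and 1 in WT, where 6.28% and 8.97% of all genes were higher, so that the WT count was below that share. Fos was at 1045 CPM in TG and 891 in WT against 447 and 763 in CD8αβ cells, so it passed 2-fold in TG, and Jun was at 1659 and 2411 against 906 and 1120.3, so it passed in WT. With TMM scaling and with totals free of ribosomal protein and mitochondrial genes the WT ratio of Jun was 0.91, short of 2-fold. Of 15 glycolytic genes, 12 in TG and 11 in WT reached the level in the comparison with CD8αβ cells, with median log2 ratios of -0.40 and -0.31 where all genes had 0.15 and 0.20. The single one past 2-fold there was Pgk1 in WT, at 97.9 CPM against 221, where 5.05% of all genes were lower. The ratio of Pgk1 was -0.66 without CD8αβ clusters 4, 7 and 13.

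Of 10 survival genes none passed 2-fold over CD8αβ cells in TG and 2 of 6 did in WT, where 8.97% of all genes were higher. Bcl2, an inhibitor of cell death, was at 299 CPM in TG against 195 in CD8αβ cells and at 531 in WT against 221, and Bcl2l1, a relative, at 51.0 against 28.9 and 72.7 against 30.3. In WT Bcl2l1 reached the level minimum through the CD8αα cells, which fixed its direction. Without CD8αβ clusters 4, 7 and 13 the WT ratio of Bcl2 was 0.94, short of 2-fold. Of 18 checkpoint and costimulatory genes, 4 of 9 at the level were higher than in CD8αβ cells in TG and 5 of 10 in WT (6.28% and 8.97% of all genes), and Tnfrsf18 (GITR) was among them in both, with 131 and 148 CPM against 57.7 and 61.3. Some of the higher genes, among them Lag3 in TG, reached the level minimum through the CD8αα cells, which fixed their direction. The ratio of Tnfrsf18 was 0.997 in TG with TMM scaling and 0.85 in WT without those clusters, both short of 2-fold. Against NKT cells 3 of the 9 at the level were higher and 2 lower in each library (3.11% and 4.46% of all genes higher, 2.22% and 2.67% lower, in TG and WT), and against NK cells 4 of 9 were higher in TG and 1 of 11 in WT (1.66% and 1.76% of all genes). None of the 18 passed 2-fold between the libraries. Macrophage genes summed to 37.4 CPM in TG and 12.6 in WT over 7 genes, and 3 hepatocyte genes had 0 UMIs in both in the filtered table, where some genes are 0 that were above 0 in the library counts.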
